A study of Mus musculus with 8 samples.

Results

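Negative feedback on the ERK pathway was examined through 10 genes, the Sprouty genes Spry1 and Spry2, the Spred genes Spred1 and Spred2, and the dual-specificity phosphatase genes Dusp1, Dusp2, Dusp4, Dusp5, Dusp6 and Dusp10. They were chosen by name from the 19826 genes of the deposited table, and all 10 were found there. The libraries came from regulatory T cells (Treg), which express the transcription factor Foxp3 and restrain immune responses. The cells were sorted as CD4+ YFP+ cells, without treatment, from the spleen and peripheral lymph nodes of C57BL/6 mice whose age was not given in the sources used here. Both groups were heterozygous for the X-linked Foxp3 YFP-Cre allele (Foxp3 YFP-Cre/+), so Cre acts in cells that express Foxp3 from that chromosome, and the sort takes those cells. The WT group was Pdpk1 +/+ and the other group, labelled Pdpk1 KO, was Pdpk1 FL/FL, with 4 polyadenylated RNA libraries in each. Pdpk1 encodes PDK1, the kinase that activates AKT and several other kinases.

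In T cells, antigen receptor and cytokine signals activate Ras, which acts through the kinases RAF and MEK on ERK. ERK in turn raises transcription of its own inhibitors. Sprouty proteins act between the receptor and RAF, Spred proteins bring the Ras inactivator neurofibromin to the membrane, and the dual-specificity phosphatases remove the activating phosphates from ERK, p38 or JNK. Their transcripts are often read as a record of recent pathway activity, although several are also induced by other signals.

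The recovered depth was 17448095 to 26299577 reads per library. Values are normalized counts, that is, gene read counts divided by a size factor for each library. Across 13847 tested genes, log2 values correlated at 0.944 to 0.968 within groups and 0.925 to 0.955 across groups. Pdpk1 itself lay at 1923 to 2600 in WT and 1656 to 2505 in the libraries labelled Pdpk1 KO. That count spans all exons, and the sources used here do not say which of them loxP sites flank. It is therefore no check of the labels. Foxp3 lay at 4418 to 6098 and 4708 to 6340. Of 8 tested Treg and CD4 markers, which include Foxp3, 1 was higher and 1 lower, against 4.41% and 5.06% of all tested genes. Mean normalized counts went from 15734 to 24420 for Il2ra, the higher one, and from 14582 to 9029 for Trac, the lower one. The 6 others were not past the threshold, and the median log2 change of the 8 was -0.25. Groups did not overlap for Il2ra, Cd4 and Cd3g, with Cd4 and Cd3g lower, against 15.3% of all tested genes. Whether a library is 1 mouse is not given in the labels, and p-values measure only the spread between these libraries. In bulk RNA, fewer cells of a type and less RNA per cell cannot be told apart. Macrophage transcripts were higher in the libraries labelled Pdpk1 KO. Of 22 macrophage markers, none was at 0 in every library. The summed level was 2786 to 4088 in WT and 2977 to 7016 in the other group. Of the 19 tested, 8 were higher, against 4.41% of all tested genes, and 1 was lower (Axl), against 5.06%. Among the higher ones, mean normalized counts went from 50.7 to 314 for Lyz2 and from 83.6 to 327 for C1qa. In WT most of the macrophage sum was Cst3 (mean 1365, and 1476 in the other group) and Axl (1130 and 598). The sum therefore understates the rise of most other macrophage markers. The summed level of 2 CD8 markers was 268 to 512 and 365 to 528, and that of 5 dendritic cell markers 12.4 to 98.4 and 20.5 to 64.0. Of 4 tested B cell markers, 2 (Cd79b and Cd22) were lower, against 5.06% of all tested genes. The sum over 7 markers was 5764 to 9459 in WT and 6053 to 7269 in the other group. Most of that sum was Ighm (mean 7345 and 6336). Cd79a went the other way, from 48.2 to 83.2, not past the threshold (limma adjusted p = 0.258). The log2 changes of the members and of the pathway genes named below for their calls were therefore refitted with the mean macrophage level as a term and again after dropping the 3 libraries where it was highest (WT replicate 2 and replicates 2 and 3 labelled Pdpk1 KO). The values are given where they bear on a call, and for Dusp14 only as the range over the alternatives that lost its call.

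Spry1 and Spred1 rose and Dusp1 fell, while the other tested phosphatase genes and Spred2 did not pass the threshold of an adjusted p of 0.05. Spry2 was too low to test. Of the 9 tested members, 3 passed, against 9.47% of all tested genes. By direction, 2 were higher, against 4.41%, and 1 was lower, against 5.06%. The median log2 change of the 9 was 0.07, and that of all tested genes was -0.01. The same 3 members had groups that did not overlap, a pattern held by 15.3% of all tested genes (7.06% higher and 8.24% lower). Changes are differences of log2(normalized count + 1), the libraries labelled Pdpk1 KO minus WT, with limma adjusted p over all 13847 genes.

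**Figure D1:**
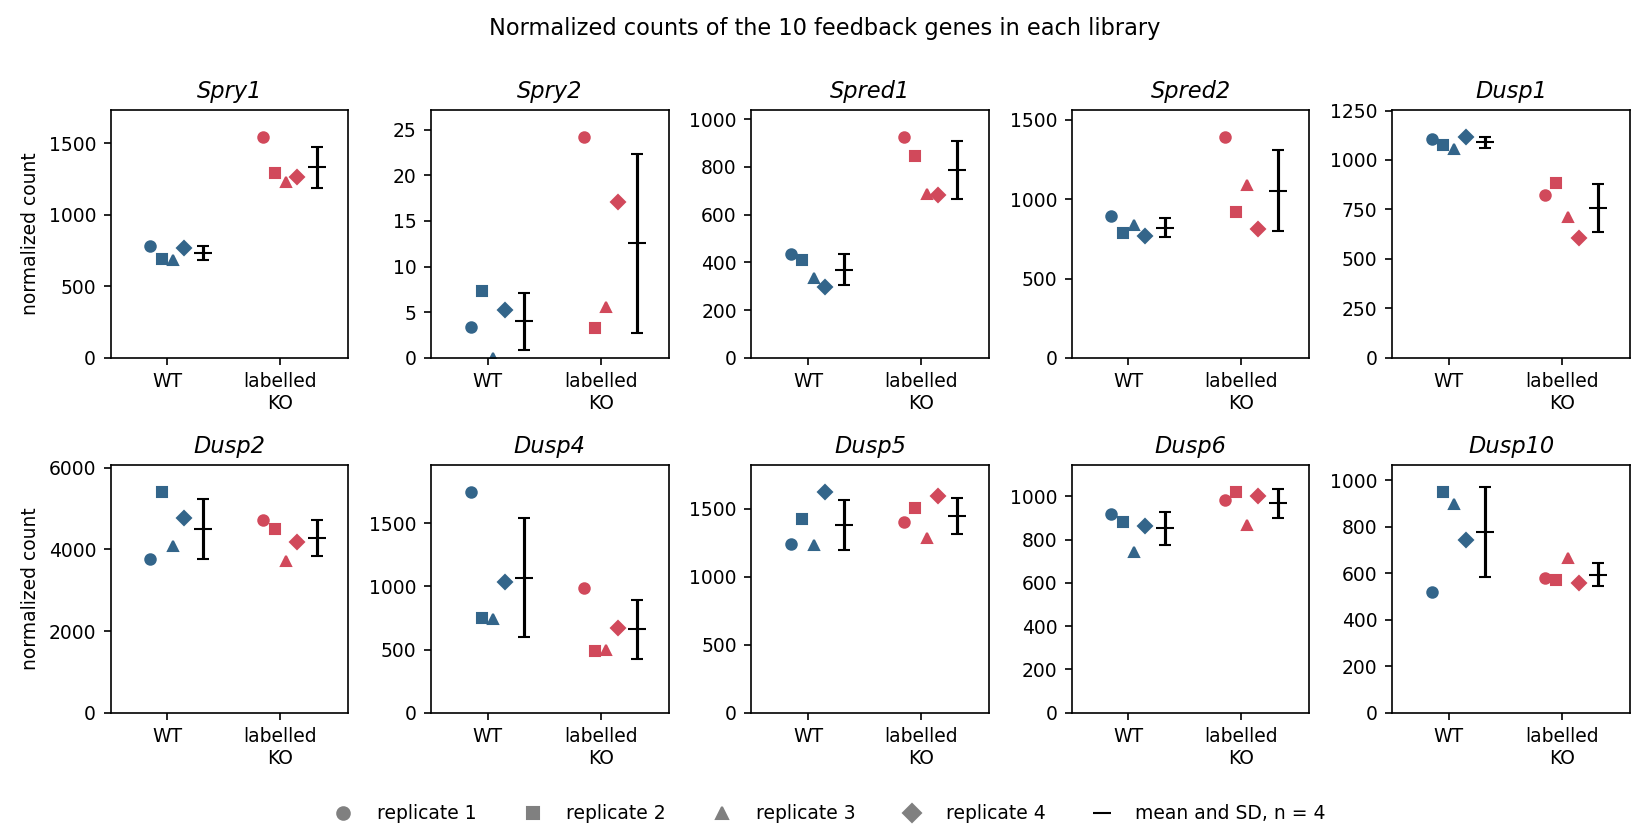
Normalized count (vertical axis, from 0, scaled for each gene) of the 10 feedback genes in WT (blue) and in the libraries labelled Pdpk1 KO (red). Each symbol is 1 library, its shape gives the replicate number, and the black bar is the mean with its SD (n = 4). The groups are apart for Spry1, Spred1 and Dusp1 and overlap for the other genes.

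Spry1 (ENSMUSG00000037211, chromosome 3, 37639947 to 37644598, plus strand, GRCm38) encodes Sprouty1, an inhibitor of receptor signalling to Ras that T cells induce after antigen receptor stimulation. WT replicates 1 to 4 had 781.2, 690.0, 686.8 and 770.2 normalized counts of Spry1. Replicates 1 to 4 labelled Pdpk1 KO had 1544.6, 1291.9, 1229.4 and 1261.3. Every library labelled Pdpk1 KO lay above every WT library, and replicate 1 labelled Pdpk1 KO was the highest. The mean went from 732 ± 50.6 to 1332 ± 144 (SD, n = 4 each). The log2 change was 0.86 ± 0.11 (SE, limma adjusted p = 0.000134), or 1.81-fold with a 95% interval of 1.54 to 2.14. With the macrophage covariate the log2 change was 1.01 (limma adjusted p = 0.00102), and without the 3 libraries it was 0.91 (limma adjusted p = 0.00942). The strand setting of the read counting is not given in the sources used here, and without strand the reads of genes on opposite strands cannot be told apart. In this case 710 exon bases of Spry1 are shared with Gm42922, an unclassified transcript on the opposite strand that had means of 7.94 and 5.26.

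Spry2 (ENSMUSG00000022114, chromosome 14, 105891947 to 105896819, minus strand) encodes the other Sprouty protein of the set and was near the limit of detection. It had 3, 7, 0 and 6 reads in WT replicates 1 to 4, and 26, 3, 5 and 20 in replicates 1 to 4 labelled Pdpk1 KO. A count of 0 allows up to 3 reads, or 2.56 to 3.38 normalized counts by library, a limit that covers counting error alone. Its groups overlapped. With every listed gene tested, its log2 change was 1.46 with a 95% interval of -0.45 to 3.36 (limma adjusted p = 0.437), so a difference was not detected. Per kilobase of exon, Spry1 made up 99.3 ± 0.61% of the summed Spry1 and Spry2 level in WT and 98.8 ± 0.88% in the other group (SD, n = 4 each).

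Spred1 (ENSMUSG00000027351, chromosome 2, 117121374 to 117182279, plus strand) encodes a membrane protein that recruits neurofibromin and blocks activation of RAF. WT replicates 1 to 4 had 436.3, 409.6, 336.0 and 296.8 normalized counts of Spred1. Replicates 1 to 4 labelled Pdpk1 KO had 925.5, 847.1, 687.1 and 680.2. The lowest library labelled Pdpk1 KO stood well above the highest WT library. The mean rose from 370 ± 64.5 to 785 ± 121 (SD, n = 4 each). The log2 change was 1.09 ± 0.16 (SE, limma adjusted p = 0.000406), or 2.13-fold with a 95% interval of 1.69 to 2.68. It became 1.13 after adding the macrophage covariate (limma adjusted p = 0.00867) and 1.17 without the 3 libraries (limma adjusted p = 0.0141).

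Spred2 (ENSMUSG00000045671, chromosome 11, 19924375 to 20024026, plus strand), a paralogue with the same action on Ras, was the more abundant Spred transcript and less clearly changed. WT replicates 1 to 4 had 896.2, 784.9, 838.7 and 767.6 normalized counts, while those labelled Pdpk1 KO had 1393.8, 917.2, 1092.4 and 815.0. Replicate 1 labelled Pdpk1 KO was the highest of the 8, and replicate 4 lay within the WT range. The log2 change of 0.33 had a 95% interval of 0.018 to 0.646, and its limma adjusted p of 0.189 missed the threshold. Without replicate 1 labelled Pdpk1 KO it was 0.19 (limma adjusted p = 0.438). Spred2 passed only with the replicate number as a block (limma adjusted p = 0.0367), and the numbers are not shown to pair libraries. Per kilobase of exon, Spred1 made up 23.3 ± 2.62% of the summed Spred1 and Spred2 level in WT and 34.0 ± 4.10% in the other group (SD, n = 4 each).

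The unequal change of related genes was tested directly by the log2 ratio of their counts within each library, for 5 pairs, using exact permutation of the group labels (two-sided, 70 assignments, smallest possible p 0.0286). The ratio of Spred1 to Spred2 was -1.04, -0.94, -1.32 and -1.37 in WT and -0.59, -0.11, -0.67 and -0.26 in the other group. All 4 libraries labelled Pdpk1 KO lay above all WT libraries, by 0.76 in the mean (exact permutation p = 0.0286, adjusted p = 0.0714 over the 5 pairs). The ratio of Spry1 to Dusp6, the gene of the cytoplasmic ERK phosphatase, also had groups that did not overlap, from -0.35 to -0.12 in WT and from 0.34 to 0.65 in the other group. The difference was 0.67 (exact permutation p = 0.0286, adjusted p = 0.0714). Both pairs had the smallest p that this permutation can give, and neither passed the threshold after adjustment. A pair with fully separate groups cannot pass on its own after adjustment over the 5 pairs. It can pass only if enough other pairs also reach the smallest p. The adjusted values therefore cannot decide whether these ratios differ, although the groups did not overlap in either. The ratio of Spry1 to Spry2 (-0.60, exact permutation p = 0.514, adjusted p = 0.514) rested on the few Spry2 reads.

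The promoters of Spry1 and Spred1, the members that rose, are shown as the 250 bases before each RefSeq start on GRCm38.p6, 5′ to 3′ on the gene's strand, at chr3:37639697-37639946 (plus strand) and chr2:117120821-117121070 (plus strand). GENCODE places the first Spred1 exon further downstream.
Spry1: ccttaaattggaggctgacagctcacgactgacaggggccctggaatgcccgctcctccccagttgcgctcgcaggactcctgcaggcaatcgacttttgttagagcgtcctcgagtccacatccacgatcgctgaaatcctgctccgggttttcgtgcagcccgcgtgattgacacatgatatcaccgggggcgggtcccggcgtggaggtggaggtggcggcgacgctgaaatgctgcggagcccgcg
Spred1: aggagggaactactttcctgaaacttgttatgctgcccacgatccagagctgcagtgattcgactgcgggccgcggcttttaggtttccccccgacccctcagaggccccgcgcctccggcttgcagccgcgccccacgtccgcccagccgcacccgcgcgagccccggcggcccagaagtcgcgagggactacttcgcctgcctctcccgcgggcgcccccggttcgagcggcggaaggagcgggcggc
Both are rich in G and C, at 62.4% and 70.8% against a median of 52.4% over 32851 promoters. Both strands were searched for the AP-1 motif (TGACTCA or TGAGTCA), the cyclic AMP response element (CRE, TGACGTCA), a forkhead motif (GTAAACA), an Ets motif (CCGGAAGT) and the CArG box bound by SRF. The shares of all promoter windows with a match were 4.46%, 1.55%, 3.17%, 2.88% and 1.47%. No base is in capitals, since neither window held any of the 5 motifs.

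Dusp1 (ENSMUSG00000024190, chromosome 17, 26505590 to 26562128, minus strand) encodes a nuclear phosphatase that acts on p38, JNK and ERK and is induced by stress, growth factors and glucocorticoids. WT replicates 1 to 4 had 1103.6, 1077.8, 1055.9 and 1117.1 normalized counts of Dusp1. Replicates 1 to 4 labelled Pdpk1 KO had 822.1, 882.1, 714.0 and 605.1. The WT libraries lay close together, and all 4 of the other group were below them. The mean fell from 1089 ± 27.2 to 756 ± 122 (SD, n = 4 each). The log2 change was -0.54 ± 0.12 (SE, limma adjusted p = 0.0113), which is 0.688 of the WT level with a 95% interval of 0.573 to 0.826. The log2 change became -0.60 after adding the macrophage covariate and -0.63 without the 3 libraries, neither past the threshold (limma adjusted p = 0.0745 and 0.0707). GENCODE gives Dusp1 a long gene model that shares 11 exon bases with Ergic1 on the opposite strand. Ergic1 had a log2 change of -0.45 (limma adjusted p = 0.0101).

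Dusp2 (ENSMUSG00000027368, chromosome 2, 127336159 to 127338376, plus strand), a nuclear phosphatase gene of activated lymphocytes, was the most abundant member. Its normalized counts ran from 3764.1 to 5407.5 in WT and from 3718.4 to 4722.3 in the other group, so the ranges overlapped, with WT replicates 2 and 4 above all the libraries labelled Pdpk1 KO. The log2 change was -0.07 with a 95% interval of -0.316 to 0.186 (limma adjusted p = 0.803).

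Dusp4 (ENSMUSG00000031530, chromosome 8, 34807297 to 34819894, plus strand), which encodes a nuclear phosphatase for ERK and JNK, was the most variable of the tested members. WT replicates 1 to 4 had 1748.5, 751.5, 744.8 and 1033.7 normalized counts of Dusp4. Replicates 1 to 4 labelled Pdpk1 KO had 987.9, 489.8, 496.2 and 673.3. Replicate 1 was the highest in both groups, and the groups overlapped. The log2 change was -0.66 with a 95% interval of -1.21 to -0.111 (limma adjusted p = 0.132). Each library labelled Pdpk1 KO lay below the WT library of the same number. With the replicate number as a block the change passed the threshold (limma adjusted p = 0.000184), but the numbers are not shown to pair libraries. Over the 8 libraries, Dusp4 was highest where macrophage markers were lowest (mean log2 marker level 4.22 in WT replicate 1) and lowest where they were highest (7.76 and 7.57 in replicates 2 and 3 labelled Pdpk1 KO). With the macrophage covariate its log2 change turned to 0.12 (limma adjusted p = 0.854), and without the 3 libraries it was -0.44 (limma adjusted p = 0.554). It was -0.39 without WT replicate 1 (limma adjusted p = 0.312), and -0.87 and past the threshold without replicate 1 labelled Pdpk1 KO (limma adjusted p = 0.0297).

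Dusp5 and Dusp6 encode phosphatases selective for ERK, the first in the nucleus and the second in the cytoplasm, and both are known as direct outputs of ERK activity. Dusp5 (ENSMUSG00000034765, chromosome 19, 53529109 to 53542431, plus strand) had 1244.6, 1428.0, 1235.5 and 1626.5 normalized counts in WT, while replicates 1 to 4 labelled Pdpk1 KO had 1401.2, 1507.8, 1284.4 and 1597.5. The groups overlapped. Its log2 change was 0.07 with a 95% interval of -0.174 to 0.313 (limma adjusted p = 0.778). Dusp5 shares 547 exon bases with AC137853.2, an antisense transcript on the opposite strand that had means of 23.6 and 17.0. Dusp6 (ENSMUSG00000019960, chromosome 10, 99263231 to 99267489, plus strand) had 919.9, 881.8, 743.9 and 865.1 in WT, and 983.2, 1021.3, 869.0 and 999.3 in the other group. Only replicate 3 labelled Pdpk1 KO lay within the WT range of Dusp6, and the log2 change of 0.18 (95% interval -0.051 to 0.421) was not past the threshold (limma adjusted p = 0.357). The upper bounds of both intervals lie below the change measured for Spry1. The within-library ratio of Dusp5 to Dusp6 differed by -0.12 (exact permutation p = 0.314, adjusted p = 0.393), and that of Dusp4 to Dusp6 by -0.85 (exact permutation p = 0.0857, adjusted p = 0.143).

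Dusp10 (ENSMUSG00000039384, chromosome 1, 184013302 to 184075636, plus strand) encodes a phosphatase for p38 and JNK. WT replicates 1 to 4 had 518.6, 951.6, 900.4 and 744.7 normalized counts, while those labelled Pdpk1 KO had 579.1, 572.0, 668.0 and 560.7. WT replicate 1 lay below all the other libraries, and the other 3 WT libraries lay above all 4 labelled Pdpk1 KO. The log2 change was -0.35 with a 95% interval of -0.712 to 0.005 (limma adjusted p = 0.225). Without WT replicate 1 it was -0.54 and past the threshold (limma adjusted p = 0.0213).

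**Figure D2:**
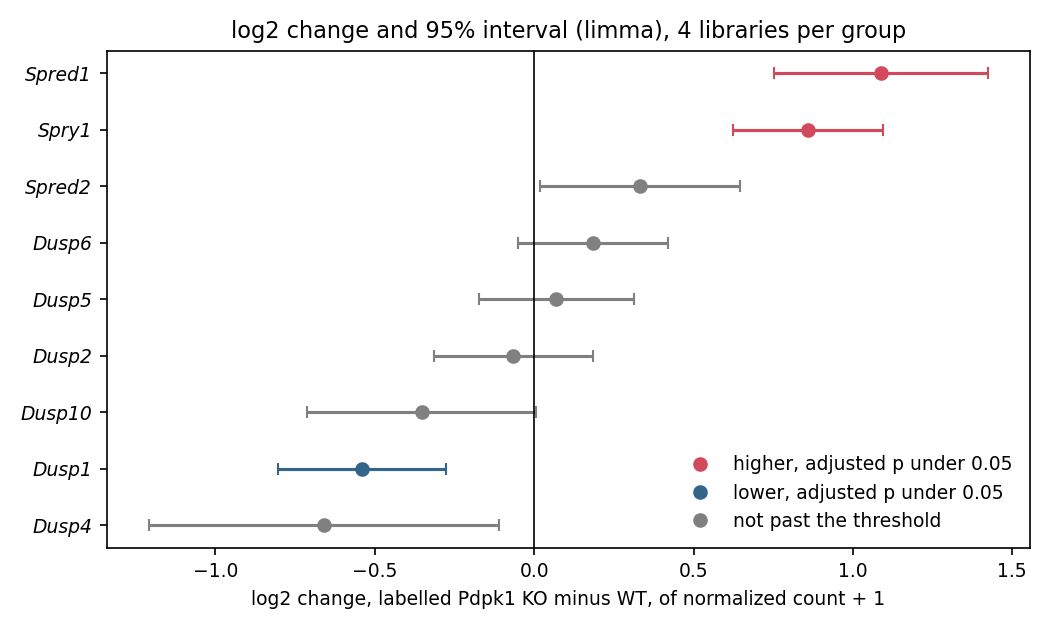
log2 change (horizontal axis, libraries labelled Pdpk1 KO minus WT, of normalized count + 1) of the 9 tested members with the 95% interval from limma. Spred1 at 1.09 and Spry1 at 0.86 lie furthest to the right, and Dusp1 at -0.54 is the member that passed the threshold below 0. Dusp4 at -0.66 has the widest interval.

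The promoters of Dusp1 and Dusp5 are shown because they were the ones, among the 9 members in the RefSeq promoter table, with a match to a searched motif in the 250 bases before the start. Capitals mark the match, a CRE in Dusp1 and 2 adjacent CArG boxes in Dusp5. Bases that GENCODE places in an exon of the same gene were left off. This leaves chr17:26508520-26508722 (minus strand, 203 bases) and chr19:53528895-53529108 (plus strand, 214 bases). Both are on GRCm38.p6 and 5′ to 3′ on the gene's strand. The Dusp5 window lies within the span of AC137853.2, the antisense transcript on the opposite strand (53528609 to 53529655).
Dusp1: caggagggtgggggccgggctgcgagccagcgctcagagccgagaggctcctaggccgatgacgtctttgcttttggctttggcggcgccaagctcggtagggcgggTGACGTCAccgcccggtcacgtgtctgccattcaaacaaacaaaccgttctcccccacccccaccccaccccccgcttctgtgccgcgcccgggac
Dusp5: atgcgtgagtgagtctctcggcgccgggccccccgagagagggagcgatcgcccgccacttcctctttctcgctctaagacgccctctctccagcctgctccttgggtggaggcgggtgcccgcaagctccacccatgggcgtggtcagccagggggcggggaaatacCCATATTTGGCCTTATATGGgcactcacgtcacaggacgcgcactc
The RefSeq start of Dusp1 lies inside the longer GENCODE gene model. Its CRE lies 143 to 136 bases before the RefSeq start. The CArG boxes of Dusp5 lie 82 to 73 and 72 to 63 bases before it. Both patterns are their own reverse complement, so each match is counted once. The gene with the CRE fell and the gene with the CArG boxes did not pass the threshold, and nothing was measured here on the binding of any factor.

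Levels can be compared between genes after division by exon length. In WT, the normalized count per kilobase was 2248 ± 367 for Dusp2, 559 ± 74.7 for Dusp5, 390 ± 172 for Dusp4, 329 ± 8.22 for Dusp1, 272 ± 24.3 for Dusp6 and 256 ± 63.9 for Dusp10 (SD, n = 4). Spry1 followed at 252 ± 17.4, Spred2 at 178 ± 12.6, Spred1 at 54.5 ± 9.50 and Spry2 at 1.91 ± 1.49. Dusp2 stood apart from Dusp5 in every WT library. Dusp1 stood apart from Dusp6. Dusp5 and Dusp4 overlapped, as did Dusp4 and Dusp1, Dusp6 and Dusp10, and Dusp10 and Spry1. Spry1, Spred2, Spred1 and Spry2 were each apart from the next. In the libraries labelled Pdpk1 KO, Spry1 moved from the seventh to the third place at 458 ± 49.6 per kilobase, above Dusp6 at 309 ± 21.7 in every library. Dusp1 moved from the fourth to the seventh place at 228 ± 36.9, level with Spred2 at 228 ± 54.9. Spred1 stayed ninth at 116 ± 17.9. The exon length of Dusp1 includes exons of its long gene model, so its level per length may be understated.

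**Figure D3:**
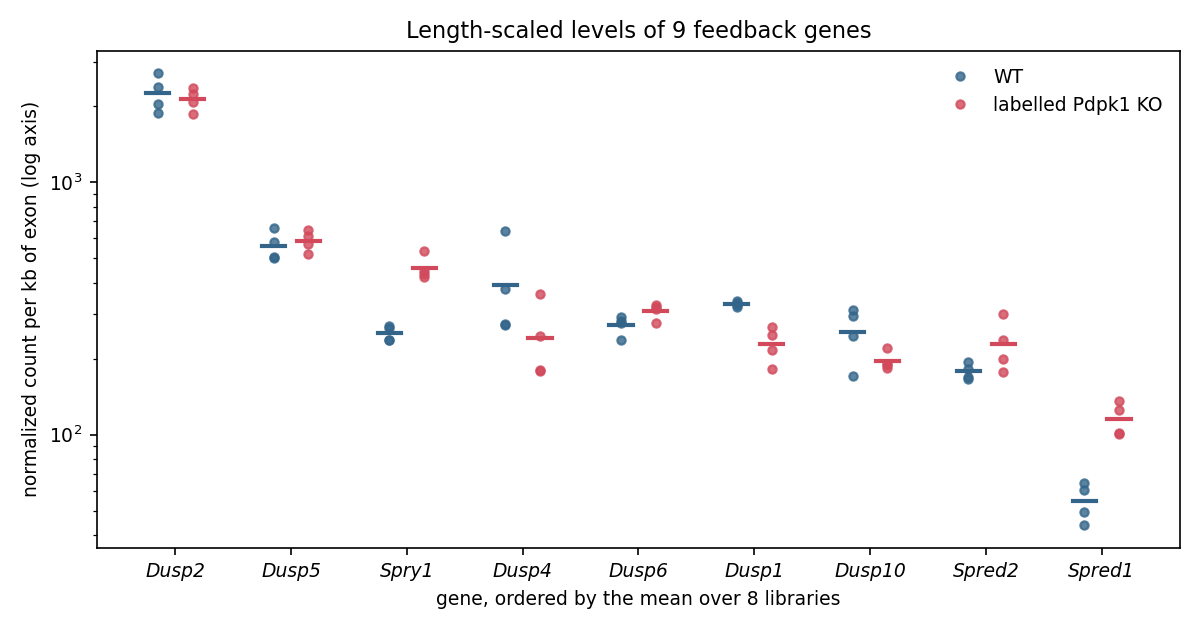
Normalized count per kilobase of merged GENCODE exons (vertical axis, logarithmic) of 9 members, ordered by the mean over the 8 libraries. Points are libraries, bars are group means (WT blue, labelled Pdpk1 KO red), and Spry2 is left out because 1 library is at 0. Dusp2 is the highest gene in every library, and Spry1 and Spred1 show the upward shift between the groups.

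Of 11 further Sprouty, Spred and Dusp genes, 9 were in the table and 6 were high enough to test, and the others were not analysed here or not tested. Dusp14, which encodes a small phosphatase that dampens T cell receptor signalling, fell from 65.0 ± 14.8 to 22.1 ± 9.99 normalized counts (SD, n = 4 each), a log2 change of -1.61 (limma adjusted p = 0.0333). The 5 others were not past the threshold, so 1 of the 6 tested was lower, against 5.06% of all tested genes. The Dusp14 call was lost in 8 of 18 alternatives, with log2 changes of -1.70 to -1.29 (limma adjusted p of 0.0542 to 0.241). Among them were leaving out any 1 WT library or replicate 2 or 4 labelled Pdpk1 KO. The call was also not kept under both macrophage refits. The list had a median log2 change of -0.46, against -0.01 for all tested genes.

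Most genes of the Ras and ERK cascade did not pass the threshold. Of 24 tested, 1 rose, 2 fell and 21 did not pass, against 9.47% called among all tested genes, with a median log2 change of 0.01. Rasa3, which encodes a GTPase activating protein that switches off Ras and Rap proteins, rose from 8144 ± 447 to 12213 ± 1334 normalized counts (SD, n = 4 each), a log2 change of 0.58 (limma adjusted p = 0.00137). It became 0.55 after adding the macrophage covariate (limma adjusted p = 0.0358) and 0.51 and not past the threshold without the 3 libraries (limma adjusted p = 0.0956). Ksr1, the scaffold that holds RAF, MEK and ERK together, fell from 1064 ± 232 to 669 ± 90.5, a log2 change of -0.65 (limma adjusted p = 0.0125). Mapk3, the gene of ERK1, fell from 1242 ± 182 to 931 ± 59.0, a log2 change of -0.41 (limma adjusted p = 0.0419). The Mapk3 call was lost in 10 of 18 alternatives, among them leaving out any library but WT replicate 1, with log2 changes of -0.48 to -0.32. With the macrophage covariate Ksr1 was at -0.57 and Mapk3 at -0.47, neither past the threshold (limma adjusted p = 0.18 and 0.155), and without the 3 libraries they were at -0.72 and -0.48 (limma adjusted p = 0.12 and 0.183).

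Of 18 tested genes of the p38 and JNK cascade, on which Dusp1 and Dusp10 act, 2 were lower and 16 not past the threshold, against 5.06% lower among all tested genes, and the median log2 change was -0.00. Mapkapk3, a kinase gene downstream of p38, fell from 2619 ± 166 to 1716 ± 88.2 normalized counts (SD, n = 4 each), a log2 change of -0.61 (limma adjusted p = 0.00048). It stayed past the threshold under all 18 alternatives, at -0.66 to -0.55. Gadd45b, whose product activates a kinase upstream of p38 and JNK, fell from 522 ± 68.4 to 301 ± 51.0, a log2 change of -0.80 (limma adjusted p = 0.00552). It became -0.52 after adding the macrophage covariate and -0.73 without the 3 libraries (limma adjusted p = 0.224 and 0.0678).

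Of 17 tested genes linked to the ERK response, 1 rose, 2 fell and 14 did not pass, against 9.47% called among all tested genes. Their median log2 change was -0.18. The list mixes early genes induced through ERK with Elk1, Elk3, Elk4 and Srf, factors through which ERK acts. None of those factors passed, and the count and median are not a measure of ERK output alone. Myc, which drives cell growth, rose from 3753 ± 150 to 8809 ± 822 normalized counts (SD, n = 4 each), at a log2 change of 1.23 (limma adjusted p = 1.27e-06). Egr3, an early gene of antigen receptor signalling that ERK induces, was at -0.79 (limma adjusted p = 0.0132) and Ier5 at -0.48 (limma adjusted p = 0.0123). With the macrophage covariate these were -0.36 and -0.43, not past the threshold (limma adjusted p = 0.439 and 0.167), nor were they without the 3 libraries, at -0.47 and -0.25 (limma adjusted p = 0.31 and 0.429). Ier5 was also just short of the threshold without replicate 3 labelled Pdpk1 KO (limma adjusted p = 0.0529).

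Dusp1 belongs to the genes that tissue dissociation and sorting can induce. Of 19 tested genes of that response, 2 rose, 2 fell and the other 15 did not pass, against 9.47% called among all tested genes, and their median log2 change was 0.04. The summed level was 79772 to 110784 in WT and 86200 to 111686 in the other group. Jun, an AP-1 subunit gene, rose from 427 ± 127 to 2459 ± 430 normalized counts (SD, n = 4 each), a log2 change of 2.56 (limma adjusted p = 1.39e-06), and Klf6 rose by 0.37 (limma adjusted p = 0.0162). Zfp36l1, which encodes a protein that promotes decay of messenger RNA, and the receptor gene Nr4a1 were at -0.63 and -0.70 (limma adjusted p = 0.000325 and 0.00211). With the macrophage covariate Klf6 was at 0.28 and Nr4a1 at -0.57, not past the threshold (limma adjusted p = 0.272 and 0.0805). Without the 3 libraries Klf6, Nr4a1 and Zfp36l1 were at 0.38, -0.54 and -0.56 and not past it (limma adjusted p = 0.19, 0.127 and 0.0527). Klf6 was also not past it without replicate 3 labelled Pdpk1 KO (limma adjusted p = 0.0574). The part of sample handling in the Dusp1 result was not tested.

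**Figure D4:**
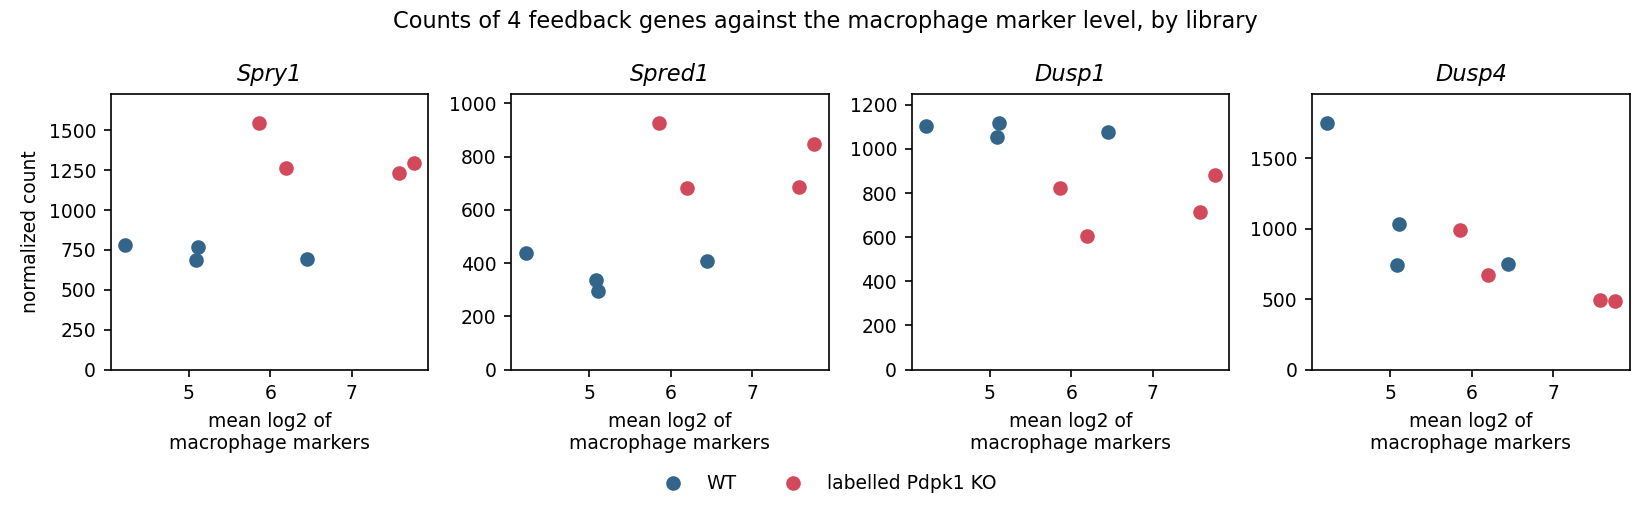
Normalized count (vertical axis, from 0) of Spry1, Spred1, Dusp1 and Dusp4 against the mean log2(normalized count + 1) of 19 macrophage markers (horizontal axis), 1 point per library, WT blue and labelled Pdpk1 KO red. The Spry1 and Spred1 groups do not overlap on the vertical axis, while Dusp4 falls from left to right across both groups.

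The genes whose pattern over the 8 libraries was most like that of each called member were found by Pearson's r of log2 values among 9751 other genes with a mean normalized count of at least 50. These values mix the difference between groups with the spread inside them, and the libraries share depth and composition. For Spry1 they were Gnl3 (r = 0.991), a nucleolar GTPase gene, Zscan29 (0.989), a zinc finger gene, and Sema7a (0.985), a semaphorin gene. For Spred1 they were Tnfsf8 (0.995), the gene of the CD30 ligand, Plac8 (0.994) and Traf6 (0.989), a signalling adaptor gene. Tnfsf8 went from 1601 ± 224 to 2665 ± 234 normalized counts and Plac8 from 219 ± 86.1 to 899 ± 276 (SD, n = 4 each). For Dusp1 they were Bcl2a1b (0.981), Nav2 (0.979) and Itgb8 (0.978), the last an integrin gene that went from 441 ± 59.7 to 167 ± 45.7. Bcl2a1b has near-identical copies, so its reads are uncertain. Spry1 and Spred1 correlated with each other at r = 0.95 over the 8 libraries, and at 0.46 after the group means were removed.

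**Figure D5:**
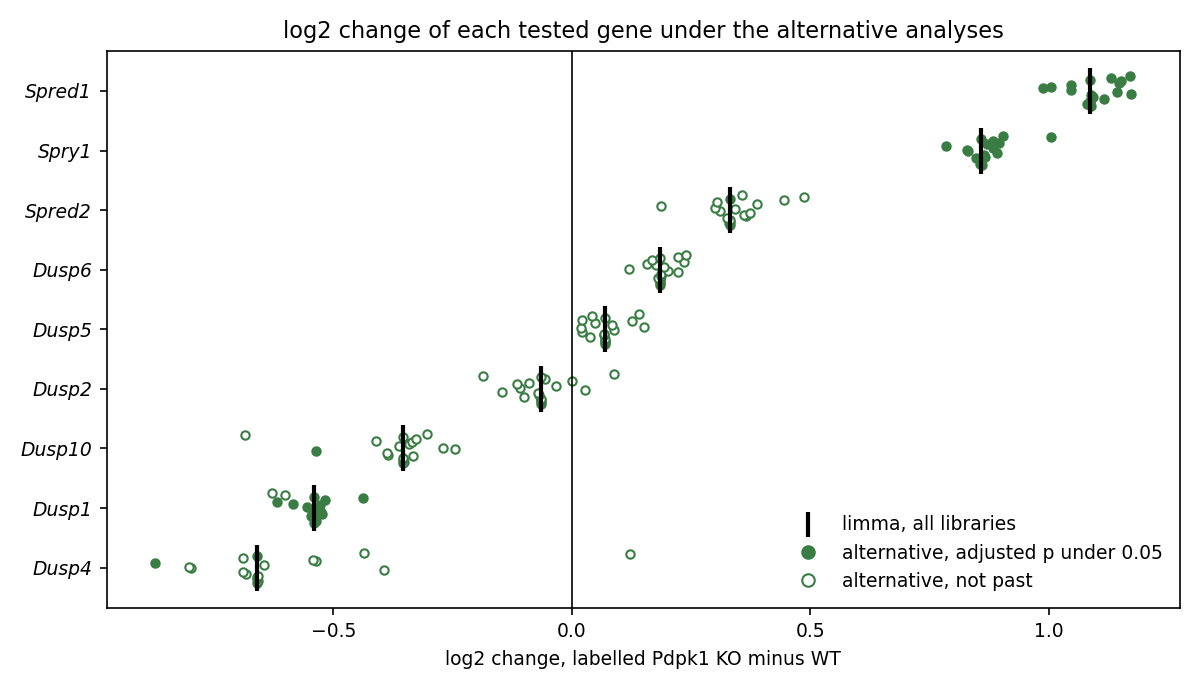
log2 change (horizontal axis, libraries labelled Pdpk1 KO minus WT) of the 9 tested members with all libraries in limma (black bar) and under 18 alternatives (circles, filled where the adjusted p was under 0.05). Spry1 (0.79 to 1.01) and Spred1 (0.99 to 1.17) were past the threshold under all 18, and Dusp1 under 16.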

How the data were processed

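Polyadenylated RNA of sorted Treg was sequenced in 4 WT and 4 labelled Pdpk1 KO libraries. GRCm38, DESeq2 1.21, featureCounts, Subread 2.0.1, SAMtools 1.11, STAR 2.7.6a and Trimmomatic 0.39 are listed, without roles, in the submitters' processing notes. The deposited table holds 1 signal value per gene and library, which the authors made by dividing gene read counts by a DESeq2 size factor. Of all values, 100% came out whole (tolerance 0.001) when divided by what 1 read is worth in their library, so whole reads were recovered.

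Ensembl identifiers were matched to GENCODE M21 on GRCm38 (19775 of 19826). Genes with a normalized count of at least 10 in at least 4 libraries were tested (13847) and 5979 were not. log2(normalized count + 1) was compared with limma 3.58.1 in R 4.3.3 (lmFit, eBayes with trend, two-sided, Benjamini-Hochberg, threshold 0.05). This scale understates changes of low genes. limma, edgeR and DESeq2 were tested on simulated data. There limma recovered 32% of 1.5-fold and 62% of 2-fold changes, with 15 false calls. A gene not past the threshold is therefore not shown to be unchanged. Alternatives were edgeR 4.0.16 and DESeq2 1.42.0 on the recovered reads (599 genes higher and 655 lower, and 848 higher and 908 lower), other pseudocounts, filters and scaling, a replicate block, each library left out, and macrophage markers. All replicate pairs differed beyond counting noise (chi-square per degree of freedom 13.8 or more). Promoters are from RefSeq, GRCm38.p6, and 9 of 10 members matched.

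The members, lists and tests were chosen with earlier results of these data known. From each context list, up to 4 called genes with the smallest adjusted p were named. For each called member, the 3 genes most alike were named.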

Additional observations from a re-analysis of the deposited data

How the results depend on the processing

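Of the 10 members, 9 were tested. Spry1 and Spred1 were called higher under all 18 alternatives, and Dusp6, Dusp5 and Spred2 kept a positive log2 change under all 18. The macrophage covariate left 0 lower members, with 230 genes called higher and 312 lower. Dropping the 3 libraries left 0 lower members, with 167 genes called higher and 305 lower (611 and 700 with all libraries). Leaving out 1 library gave 1 to 2 lower members, 389 to 588 higher genes and 495 to 724 lower genes. The counts of higher genes that moved by over 1.5 times were 389, with WT replicate 4 left out, and 395, with replicate 3 labelled Pdpk1 KO left out. The Dusp2 change reversed without WT replicate 2 (0.0276), without replicate 3 labelled Pdpk1 KO (0.000576) and without the 3 libraries (0.0878), and the Dusp4 change with the macrophage covariate (0.122). The ratio of Spry1 to Spry2 reversed with a pseudocount of 5 (0.000254) and without WT replicate 3 (0.0259), where Spry2 has 0 reads. Over the fits with 1 library left out, Dusp2 ran from -0.147 to 0.0276 and that ratio from -1.02 to 0.0259. The cause was not tested.

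With the replicate number as a block, 1243 genes were higher and 1292 lower, 3 members were higher (Spred2 added, adjusted p = 0.0367) and 2 lower (Dusp4 added, adjusted p = 0.000184). Deviations of same-numbered libraries correlated at 0.217, 0.0921, 0.0481 and 0.113, and those of libraries with different numbers at -0.156 to 0.109. WT replicates 1, 2 and 4 correlated best with their own number, and WT replicate 3 with another. The labels do not say what the numbers stand for. The numbers are therefore not shown to pair libraries, and a pairing is not excluded. Sign flips within 4 such pairs cannot reach p of 0.05 for the log ratios. The Spry2 values rest on 70 reads in all.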

Other observations

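The nearest tested gene on each side of the 10 members was also read from the same fit. Of these 20 neighbours, 0 passed the threshold in limma, 3 had an unadjusted p under 0.05, 0 passed in edgeR and 1 in DESeq2. The 3 were Gm10076 near Spry2, which was also the one past the threshold in DESeq2 (adjusted p = 0.0244, limma adjusted p = 0.0576), Stard7 near Dusp2 and Smc3 near Dusp5, named after their values were seen. The neighbours of the called members follow, also named after the fact. Spata5, 60851 bases before Spry1, was at a log2 change of 0.25 (limma adjusted p = 0.325). Fam98b, 67460 bases after Spred1, was at -0.02 (limma adjusted p = 0.948). BC052040, on the other side of Spred1, was at -0.26 and Gm5148, on the other side of Spry1, at 0.17 (limma adjusted p = 0.534 and 0.914). Luc7l and Atp6v0e, on the sides of Dusp1, were at 0.15 and -0.07 (limma adjusted p = 0.394 and 0.845).

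The spread within a group differed between members. The coefficient of variation of Dusp1 was 2.50% (WT) and 16.2% (labelled Pdpk1 KO), and that of Dusp10 was 25.0% and 8.28%. Dusp4 varied by 44.1% and 35.3%. After removal of the group means, Dusp4 and Dusp10 correlated at -0.81 over the 8 libraries, and Dusp4 and Spry1 at 0.84. These are descriptions over few libraries.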
